A study of Mus musculus with 20 samples.

Results

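The translation initiation and elongation factors of the mouse kidney were followed through ischemia/reperfusion injury (IRI), ischemic pre-conditioning (IPC) and Hemin treatment. They were taken by name, as every gene of the array whose symbol starts with Eif or Eef and a digit, without Eif2ak3. This gave 63 of the 27827 gene names, measured by 142 of the 41174 probes, with 1 probe for 20 genes and several for 43. The names are those of the array annotation. RefSeq (GRCm38.p6) held 57 of them under the same symbol and 6 under another, found through the accession. Eif1ay is Eif1ax, Eif3j is Eif3j1, and Eif2c1 to Eif2c4 are Ago1 to Ago4, the Argonaute proteins. The Argonautes carry small RNAs and only share an old name with the factors, but they are included in the counts of factors below. All but Eef1a2 and Eif2b3 carried the scanner software's mark for a signal well above background on every array (61 genes on all 20 arrays), and Eef1a2, the elongation factor of muscle and neurons, carried it on none.

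Initiation factors bring the small ribosomal subunit, the initiator tRNA and the mRNA together. eIF4E binds the cap, eIF4G is the scaffold and eIF4A the helicase of the cap complex, and the eIF4E-binding proteins (4E-BPs) keep eIF4E away from eIF4G until mTOR phosphorylates them. eIF2 carries the initiator tRNA, eIF2B recharges it with GTP, and a family of kinases that sense heme, viral RNA, amino acid lack or endoplasmic reticulum stress halts this step by phosphorylating the alpha subunit of eIF2. eIF1, eIF1A and eIF3 act while the start codon is sought, eIF5 and eIF5B join the subunits, and eIF6 keeps a free large subunit from joining. In elongation, eEF1A delivers aminoacyl-tRNA, the eEF1B subunits recharge it, and eEF2 moves the ribosome along. Much of the control of these proteins is by phosphorylation, which RNA arrays do not measure.

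Whole kidneys of male C57BL/6 mice of 8 to 12 weeks were used, with 4 arrays in each of 5 groups. Control mice had neither surgery nor treatment, so surgery without clamping is in no group. IRI mice had both renal pedicles clamped for 45 min and were killed 6 h after reperfusion. IRI+Hemin mice received Hemin, an inducer of heme oxygenase 1, at 25 mg/kg by intraperitoneal injection 24 h before the same surgery, and IPC+IRI mice a shorter ischemia of 15 min, 7 days before it. Hemin mice had the drug at this dose and no surgery. The samples are separate by label, and nothing states that each is a mouse of its own, so the p-values may measure a technical spread. In whole tissue, fewer cells of a type and less RNA per cell cannot be told apart.

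Values are log2 expression: the log2 of the mean signal of a gene's probes over the 75th percentile of the array, so that 0 lies at this percentile. Errors are SD over the 4 arrays of a group. Changes are log2 fold changes from limma, fitted to all 20 arrays, and a change was called at a Benjamini-Hochberg adjusted p below 0.05 over all genes tested. The 5 slides held 1 group each, which leaves slide effects and group effects inseparable: they cannot be told apart. Scans were made on 3 days, the first for the slides of Control and IRI, the second for that of IRI+Hemin and the third for those of Hemin and IPC+IRI. The 75th percentile ranged from 146.7 to 358 intensity units over the arrays, and 57.4% to 67.4% of gene names were well above background. Control replicate 2 had the lowest percentile and stood apart from the other Control arrays. Of the 28 factors called in Hemin vs Control, it was the Control array nearest to the Hemin mean in 24, and of all 6713 genes called there, in 4299. Of the 37 factors called in IPC+IRI vs Control it was nearest to the IPC+IRI mean in 33, and of all 10279 genes called there, in 5367. In IRI vs Control it was nearest to the IRI mean in 17 of 26 factors and 2425 of 9030 genes. The counts below are therefore also given without it. The summed level of 7 proximal tubule markers was 411 to 454 times the 75th percentile in Control, 387 to 406 in Hemin, 300 to 421 in IRI, 264 to 377 in IRI+Hemin and 293 to 335 in IPC+IRI. In IPC+IRI vs IRI 3 of the 7 tubule markers were called higher and 2 lower, in IRI+Hemin vs IRI 3 and 1, and in IRI vs Control 0 and 3. That of 8 leukocyte markers was 0.86 to 1.13 in Control, 0.842 to 2.02 in Hemin, 3.65 to 9.03 in IRI, 2.78 to 10.8 in IRI+Hemin and 6.77 to 20.3 in IPC+IRI. The sum of 4 erythroid genes was 75.9 to 97.2 in IRI and 10.6 to 54.2 in IPC+IRI, without overlap, and all 3 of them tested were called lower in IPC+IRI vs IRI. That of 3 endothelial genes was 3.19 to 4.15 in IRI and 1.39 to 3.04 in IPC+IRI, with 2 of 3 called lower. In Control, IRI+Hemin and Hemin the erythroid sums were 31.6 to 140, 38.2 to 155 and 31.9 to 62.5, and the endothelial ones 2.13 to 3.08, 2.36 to 3.46 and 1.79 to 2.39. All 7 tubule markers were above background on every array, and 5 of the 8 leukocyte markers were so on all Control arrays. The part of these cell types in the changes below was not tested.

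In IRI vs Control, 23 of the 61 factors tested were up-regulated and 3 down-regulated. Argonautes made up 1 of the rises and 2 of the falls. Of all 17719 genes tested, 17.1% were higher and 33.9% lower. Without Control replicate 2 the counts of factors were 26 and 3. Both sides depend on the processing: with normexp background correction 11 factors were higher and 1 lower, and all genes went from 3023 higher and 6007 lower to 1789 and 1394. Without normalization between arrays the factors were 13 and 1 and all genes 1976 and 3394. The median log2 fold change of the factors was 0.18, against -0.17 over all genes. In IPC+IRI vs Control, 30 of 62 were higher and 7 lower, beside 23.2% and 32.8% of all genes, and without Control replicate 2 there were 32 and 9. Without normalization between arrays there were 38 and 0. Over the whole array, the genes called higher went from 4266 to 6215 and those called lower from 6013 to 2056. In IPC+IRI vs IRI, 14 factors were higher and 14 lower (26.3% and 17.8% of all genes), and in IRI+Hemin vs IRI, 21 were higher and 10 lower (26.3% and 18.1%). Without normalization between arrays no factor was lower in either comparison (0 of 62, with 17 and 23 higher). Over the whole array, the genes called lower went from 3152 to 603 and from 3233 to 620. Those called higher went from 4641 to 5910 and from 4695 to 6539. In Hemin vs Control, 18 factors were higher and 10 lower (18.5% and 17.6% of all genes), and 21 and 11 without Control replicate 2. Quantile normalization gave 10 higher and 13 lower, and the 75th percentile of the probes above background 10 and 14. All genes went from 3442 higher and 3271 lower to 3670 and 3402 with the first, and to 2329 and 4303 with the second. Without normalization between arrays 38 factors were higher and 0 lower, and of all genes 8824 and 490. The median of all genes then went from 0.057 to 0.62. The falls of Eif1a, Eif2a, Eif2ak1, Eif2c3, Eif2s3x, Eif4b, Eif4enif1, Eif5a and Eif5a2 turned to values of 0.039 to 0.23. IRI+Hemin vs Hemin, the test of ischemia within treated mice, gave 21 higher and 5 lower (16.5% and 27.9%). With normexp background correction this comparison had 15 and 3, and unnormalized arrays gave 9 and 2. All genes went from 3068 higher and 5199 lower to 2049 and 2295 with normexp, and to 1340 and 3561 unnormalized. Called changes of at least 2-fold numbered 7 in IRI+Hemin vs Hemin (14.3% of all genes), 5 in IRI vs Control (20.3%), 3 in IPC+IRI vs Control (22.1%), 2 in IRI+Hemin vs IRI (12.5%), 1 in IPC+IRI vs IRI (11.6%) and 0 in Hemin vs Control (8.18%). The arrays of both groups did not overlap in 26 factors in IRI vs Control (46.1% of all genes), 29 in IPC+IRI vs IRI (37.9%), 32 in IPC+IRI vs Control (45.1%), 32 in IRI+Hemin vs IRI (38.9%), 26 in Hemin vs Control (37.6%) and 36 in IRI+Hemin vs Hemin (44.7%). The interaction of ischemia and Hemin, the change in treated mice minus that in untreated mice, was called higher for 3 factors and lower for 2 (5.84% and 1.96% of all genes). These were 1 and 0 with normexp background correction and 0 and 0 without normalization. Over all genes, 1113 higher and 373 lower became 117 and 29 with normexp and 321 and 84 without normalization. Under the alternative background corrections and scalings, the median of the factors in IRI vs Control stayed above that of all genes, between 0.098 and 0.30 for the factors and between -0.26 and 0.022 for all genes.

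**Figure D1:**
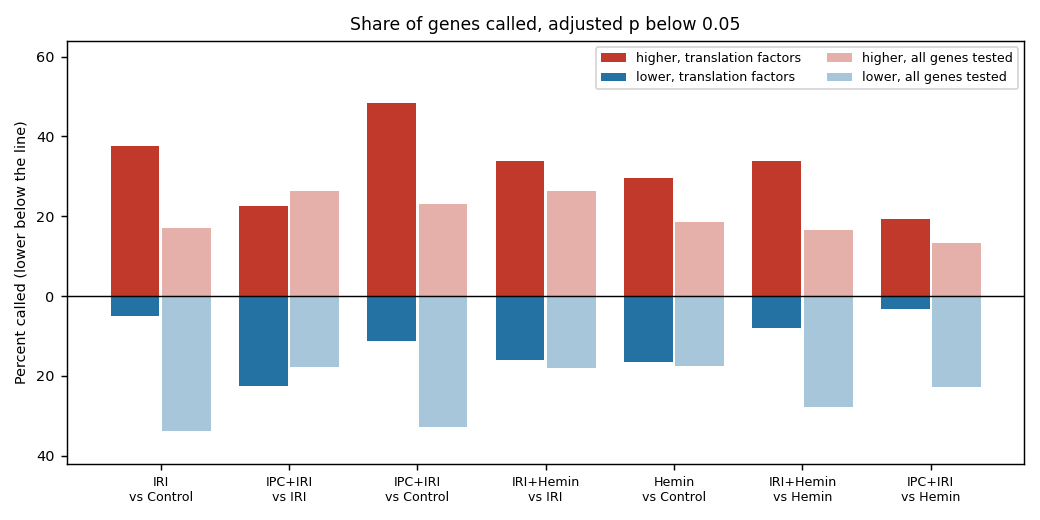
Percent of genes called higher (above the line) or lower (below it) in each comparison, for the translation factors (full colours) and all genes tested (pale). In IRI vs Control 37.7% of the factors were higher and 4.92% lower, where all genes gave 17.1% and 33.9%.

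**Figure D2:**
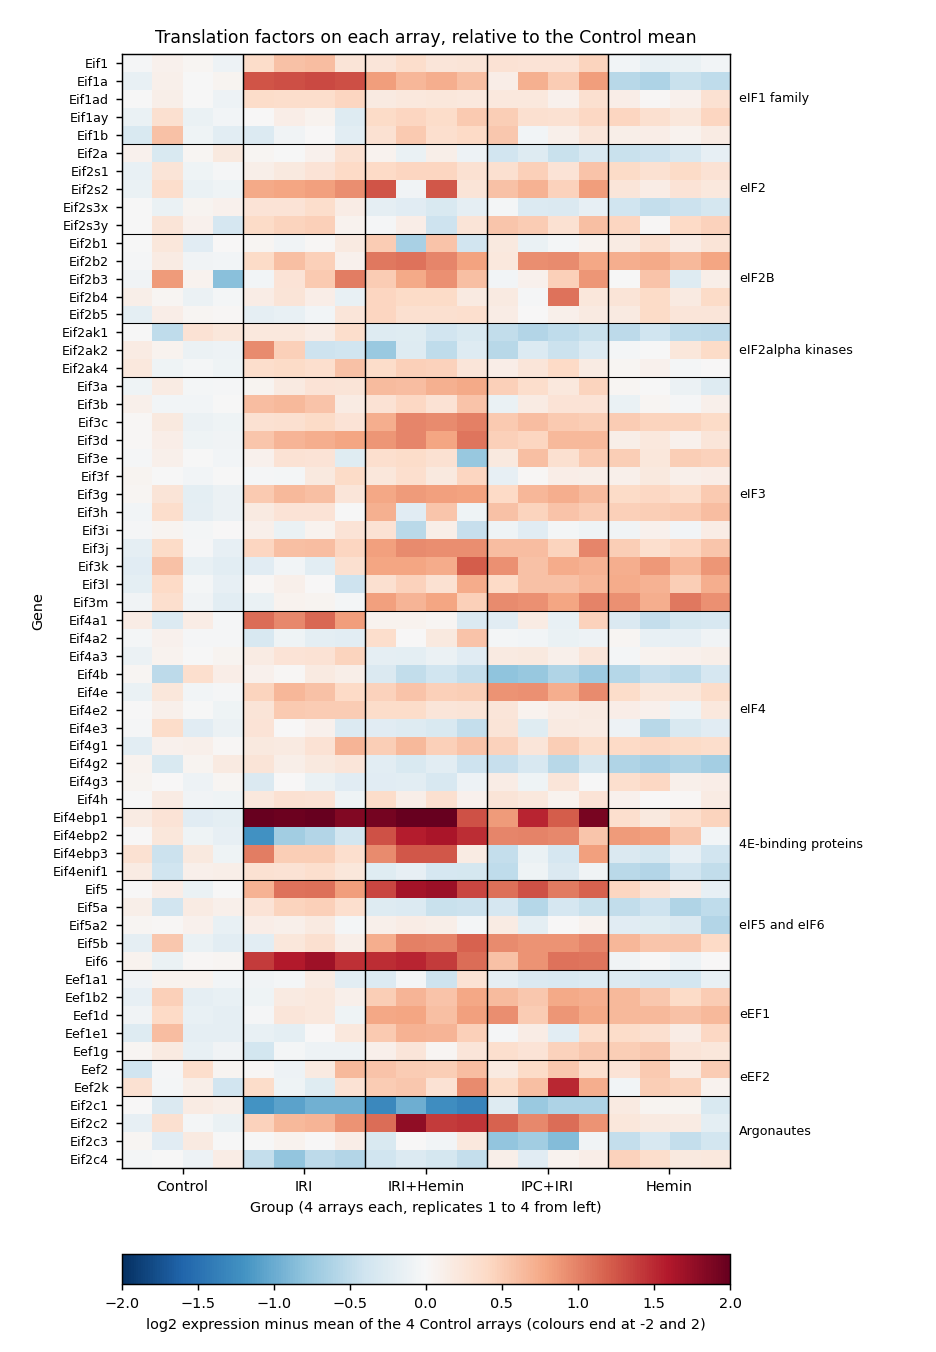
Log2 expression of each factor on each array minus the mean of the 4 Control arrays, with genes ordered by role and Eef1a2 left out. Eif4ebp1, Eif6, Eif1a and Eif5 are high in the 3 groups with ischemia, and the second Control column shares the colours of the Hemin and IPC+IRI columns in many rows.

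The 4E-BPs, which compete with eIF4G for eIF4E, held the largest rise in IRI vs Control and the largest in IRI+Hemin vs IRI, in different genes. Eif4ebp1 was at 0.68, 0.80, 0.29 and 0.33 on the Control arrays and at 2.66, 2.49, 2.65 and 2.38 on the IRI arrays. It was up-regulated 4.06-fold, or by 2.02 (standard error 0.21, adjusted p = 6.25e-07), the largest rise of any factor in this comparison. On the IRI+Hemin arrays it was at 2.45, 2.77, 2.56 and 1.79, on the IPC+IRI arrays at 1.37, 2.05, 1.74 and 2.43 and on the Hemin arrays at 0.86, 0.72, 0.86 and 0.97. No array with ischemia overlapped one without. In IPC+IRI vs IRI it fell by 0.65 (standard error 0.21, adjusted p = 0.0174). This call was lost without IPC+IRI replicate 1, at -0.47, and turned to 0.011 with the mean of log2 values over its 2 probes, which changed by -0.67 and 0.69. In IRI+Hemin vs IRI the difference was -0.16 (adjusted p = 0.572).

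Eif4ebp2, a second 4E-BP with 1 probe, went the other way. Its values were 1.04, 1.26, 0.95 and 0.87 in Control and -0.17, 0.33, 0.45 and 0.66 in IRI, all IRI arrays below all Control arrays, with a change of -0.72 (standard error 0.19, adjusted p = 0.00505). In IRI+Hemin it was at 2.30, 2.60, 2.66 and 2.51, in IPC+IRI at 2.01, 2.03, 1.99 and 1.58 and in Hemin at 1.89, 1.85, 1.57 and 0.97. Every array of both pretreated groups thus lay above every array of IRI and of Control. The differences from IRI were 2.20 (standard error 0.19, adjusted p = 9.38e-07) for IRI+Hemin, or 4.6-fold, and 1.59 (standard error 0.19, adjusted p = 1.23e-05) for IPC+IRI, and these were the largest rises among the factors in the pair of comparisons. Eif4ebp2 was also the factor with the largest interaction between ischemia and Hemin: it was lower with ischemia in untreated mice and higher in treated mice, by 0.95, a difference of 1.66 (standard error 0.28, adjusted p = 0.00126). IRI and IRI+Hemin were scanned on different days. In Hemin vs Control, without ischemia and across days, the change was 0.54 (standard error 0.19, adjusted p = 0.0375), a call lost in 9 of the 19 alternative settings.

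Eif4ebp3 had a wide spread, with 2.21, 1.49, 2.11 and 1.82 in Control and 2.94, 2.40, 2.40 and 2.25 in IRI. Its change of 0.59 was not called (adjusted p = 0.0738), and it was higher in IRI+Hemin than in Hemin by 1.20 (standard error 0.27, adjusted p = 0.00166). Eif4enif1, which carries eIF4E into the nucleus, fell by 0.52 in IPC+IRI vs IRI (adjusted p = 0.0022) and by 0.56 in IRI+Hemin vs IRI (adjusted p = 0.00127), with 1 of its probes called higher in each.

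**Figure D3:**
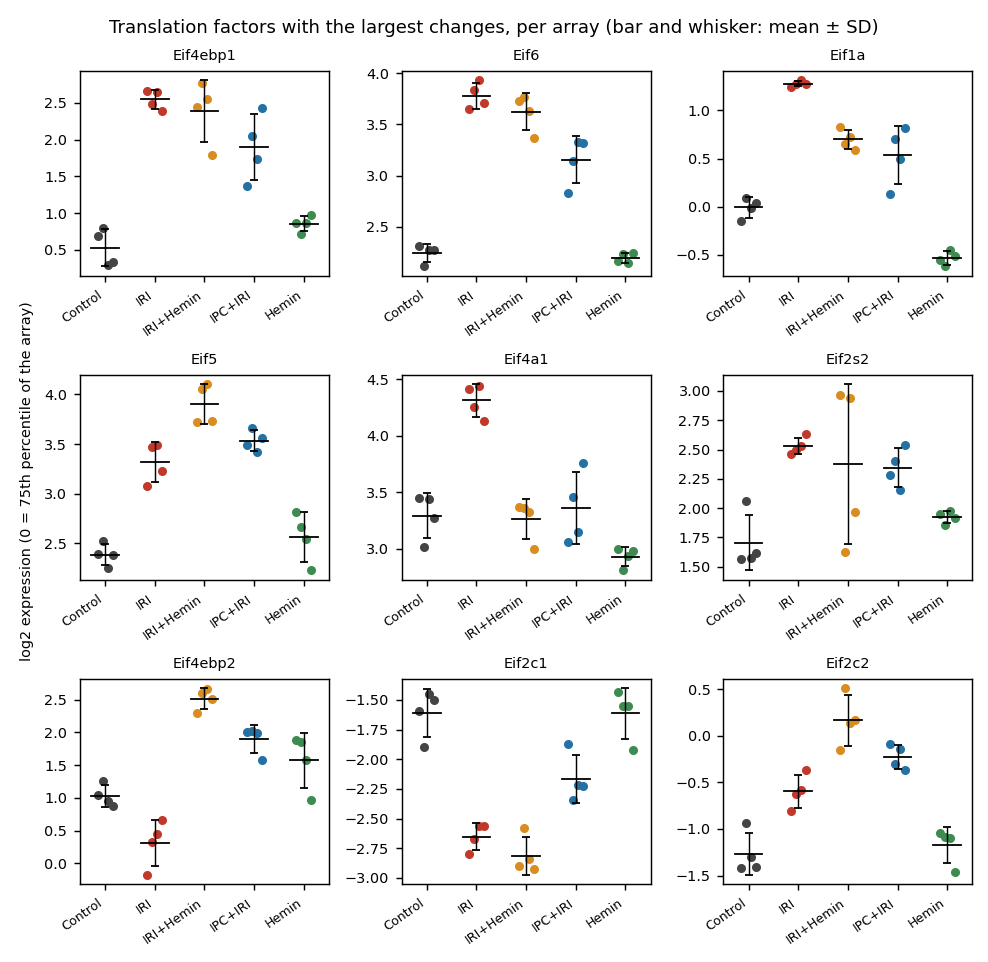
Log2 expression per array of the factors with the largest changes, with the mean and SD of each group. Eif4ebp1, Eif6 and Eif1a separate the arrays with ischemia from those without, and Eif4ebp2 lies below Control in IRI and above it in IRI+Hemin and IPC+IRI.

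In the cap complex, the helicase gene Eif4a1 was the member with the largest change in IRI. Its values were 3.45, 3.02, 3.44 and 3.27 in Control and 4.41, 4.26, 4.44 and 4.13 in IRI, a rise of 1.02 (standard error 0.14, adjusted p = 1.79e-05) with no overlap. It was at 3.37, 3.36, 3.33 and 3.00 in IRI+Hemin and 3.06, 3.46, 3.15 and 3.76 in IPC+IRI, both overlapping Control. Against IRI it fell by 1.05 (standard error 0.14, adjusted p = 3.15e-05) in IRI+Hemin and fell by 0.95 (standard error 0.14, adjusted p = 7.2e-05) in IPC+IRI. The interaction of ischemia and Hemin was -0.68 (standard error 0.21, adjusted p = 0.0486), and the call was lost in 23 of 27 alternative settings. Of its 3 probes, the brightest changed by 1.18 in IRI vs Control and A_51_P493364, which lies next to it, by -0.29 (adjusted p = 0.609). The paralog Eif4a2 was at 3.17, 3.40, 3.29 and 3.27 in IRI and 3.45, 3.58, 3.46 and 3.46 in Control and not called (-0.20, adjusted p = 0.109). It was higher in IRI+Hemin, at 3.84, 3.50, 3.68 and 4.06, by 0.49 (standard error 0.10, adjusted p = 0.00108) against IRI, and its interaction had the opposite sign of that of Eif4a1, at 0.57 (standard error 0.15, adjusted p = 0.0228), a call lost without Hemin replicate 3 (0.55). Eif4a3, which marks exon junctions and is no part of the cap complex, rose by 0.29 in IRI (adjusted p = 0.00622) and had an interaction of -0.53 (standard error 0.12, adjusted p = 0.00945).

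The gene of the cap-binding protein, Eif4e, was at 1.64, 2.00, 1.72 and 1.75 in Control, 2.22, 2.43, 2.37 and 2.17 in IRI and 2.67, 2.69, 2.50 and 2.73 in IPC+IRI. It rose in IRI by 0.52 (standard error 0.10, adjusted p = 0.000208) and was higher in IPC+IRI, by 0.35 against IRI (adjusted p = 0.00678), so that every IPC+IRI array lay above every IRI array. IRI+Hemin did not differ from IRI beyond the threshold (-0.03, standard error 0.10, adjusted p = 0.847). Eif4e2, a cap-binding paralog that represses translation, rose by 0.45 (standard error 0.09, adjusted p = 0.000472) in IRI. Eif4e3 did not pass in any comparison, with changes of 0.02 in IRI vs Control and 0.39 in IPC+IRI vs Hemin. Of the scaffolds, Eif4g1 rose by 0.34 in IRI (adjusted p = 0.0166), with a second probe called lower (-0.45), and the sign turned with the mean of log2 values and with the deposited matrix. This call was also lost without Control replicate 1 (0.27) or IRI replicate 4 (0.22). Eif4g2, which lacks the site for eIF4E, fell by 0.62 (standard error 0.10, adjusted p = 0.000125) in IPC+IRI vs IRI and by 0.48 in IRI+Hemin vs IRI (adjusted p = 0.000875), and Eif4g3 fell by 0.46 in IRI+Hemin vs Hemin (adjusted p = 0.00168). The helicase cofactor Eif4b was at 1.31 in Control and 1.42 in IRI and fell by 0.83 (standard error 0.13, adjusted p = 0.00013) in IPC+IRI vs IRI, while its relative Eif4h was called in no comparison, with group means between 4.93 and 5.15.

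Of the eIF2 subunit genes and Eif2a, 3 of 5 were called higher in IRI vs Control, where 17.1% of all genes were, and 1 of the 3 calls, that of Eif2s1, was lost in most settings. Eif2s2, the beta subunit, was at 1.57, 2.06, 1.57 and 1.62 in Control, where replicate 2 stood apart, and at 2.47, 2.50, 2.53 and 2.63 in IRI, an increase of 0.83 (standard error 0.22, adjusted p = 0.00514). On the IRI+Hemin arrays it split, at 2.97, 1.63, 2.94 and 1.97, and no difference from IRI was called (-0.15, standard error 0.22). The alpha subunit Eif2s1, the target of the kinases, changed by 0.25 (adjusted p = 0.0463, lost in 15 of 19 settings). The gamma subunit has an X-linked and a Y-linked gene. Eif2s3x rose by 0.26 in IRI (adjusted p = 0.014) and fell by 0.41 (standard error 0.08, adjusted p = 0.00144) in Hemin vs Control, while Eif2s3y was not called in IRI (0.34, adjusted p = 0.0744) or in Hemin (0.33, adjusted p = 0.105). Eif2a, a separate factor that binds initiator tRNA without GTP, fell by 0.34 in Hemin vs Control (adjusted p = 0.028), while a second probe was called higher, and the mean of log2 values gave 0.20. The call was lost in 6 of the 8 fits that left out 1 array (-0.34 to -0.27).

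Of the eIF2B subunits, Eif2b2 and Eif2b5 were called. Eif2b2 values were 3.26, 3.44, 3.21 and 3.23 in Control, 3.66, 3.88, 3.76 and 3.37 in IRI, 4.34, 4.37, 4.27 and 4.09 in IRI+Hemin, 3.50, 4.21, 4.23 and 4.06 in IPC+IRI and 4.00, 4.04, 3.94 and 4.07 in Hemin. All arrays of the last 3 groups lay above all Control arrays, and the change was 0.73 (standard error 0.14, adjusted p = 0.00104) in Hemin vs Control and 0.39 (adjusted p = 0.0311) in IRI vs Control, where the call was lost in 6 of the 8 fits that left out 1 array (0.31 to 0.39). Eif2b5, the catalytic subunit, was higher in IRI+Hemin than in IRI by 0.39 (standard error 0.10, adjusted p = 0.00487). Eif2b1 and Eif2b4 passed in no comparison, with changes in IRI vs Control of 0.04 and 0.10. Eif2b3 was near background, at -5.13 in Control, and was not tested in IRI vs Control or in Hemin vs Control.

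The eIF2alpha kinases differed from each other. Eif2ak1, the heme-regulated kinase, was at -0.89, -1.39, -0.60 and -0.66 in Control, -0.67, -0.68, -0.73 and -0.53 in IRI and -1.40, -1.28, -1.40 and -1.41 in Hemin. In Hemin vs Control it fell by 0.49 (standard error 0.13, adjusted p = 0.00716). Control replicate 2 lay among the Hemin arrays, and the other Control arrays above them. Against IRI it fell by 0.74 (standard error 0.13, adjusted p = 0.000225) in IPC+IRI, which had no Hemin, and by 0.53 in IRI+Hemin (adjusted p = 0.00305), where the mean of log2 values gave 0.063. Of its 4 probes, A_52_P681727, not well above background on any IRI array, was called higher in both (adjusted p = 0.000229 and 0.00026). Eif2ak4, which senses uncharged tRNA, rose by 0.42 (standard error 0.10, adjusted p = 0.00176) in IRI, from -1.63, -1.94, -1.89 and -1.94 to -1.49, -1.46, -1.52 and -1.26, and by 0.37 in IRI+Hemin vs Hemin (adjusted p = 0.00596). With the mean of log2 values its change in IRI vs Control was -0.30, with 1 of its 3 probes called lower. Eif2ak2, the kinase activated by double-stranded RNA, had a wide spread in IRI, from -1.89 to -0.53, and a change of 0.16 there (adjusted p = 0.597). It fell by 0.60 (standard error 0.23, adjusted p = 0.0419) in IRI+Hemin vs IRI, a call lost without IRI replicate 1 (-0.33), IRI replicate 2 (-0.49), IRI+Hemin replicate 1 (-0.50) or IRI+Hemin replicate 3 (-0.57).

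Among the factors that act at the start codon and in subunit joining, Eif6, Eif5, Eif1a and Eif1 were called higher in every comparison of ischemia with no ischemia made here. Eif6, the anti-association factor, was at 2.31, 2.11, 2.27 and 2.28 in Control, 3.65, 3.83, 3.93 and 3.71 in IRI, 3.73, 3.77, 3.63 and 3.36 in IRI+Hemin, 2.83, 3.14, 3.33 and 3.32 in IPC+IRI and 2.17, 2.23, 2.14 and 2.24 in Hemin. It rose by 1.54 (standard error 0.12, adjusted p = 2.04e-08) in IRI vs Control and by 1.43 (standard error 0.12, adjusted p = 1.19e-07) in IRI+Hemin vs Hemin, with no overlap in either, and fell by 0.63 (standard error 0.12, adjusted p = 0.0004) in IPC+IRI vs IRI. Eif5, the GTPase activator of eIF2, was at 2.39, 2.52, 2.25 and 2.38 in Control and 3.08, 3.48, 3.49 and 3.23 in IRI. It rose by 0.93 (standard error 0.13, adjusted p = 2.18e-05), and was higher again in IRI+Hemin, at 3.72, 4.05, 4.10 and 3.73, by 0.58 (standard error 0.13, adjusted p = 0.00204) against IRI. Eif1a, which with eIF1 holds the scanning ribosome open, went from -0.15, 0.09, -0.02 and 0.04 in Control to 1.25, 1.28, 1.32 and 1.28 in IRI, a rise of 1.29 (standard error 0.12, adjusted p = 1.79e-07). In IPC+IRI vs IRI it fell by 0.74 (standard error 0.12, adjusted p = 0.000112), and in Hemin, at -0.56, -0.62, -0.45 and -0.51, it fell by 0.53 against Control (adjusted p = 0.00274). Of the 4 probes of Eif1a, A_52_P337821 changed by -2.13 in IRI while the brightest, A_51_P277884, rose by 1.46, and the annotation places the falling probe on chromosome 12 and the rising one on chromosome 18, where RefSeq has the gene. Eif1, at 4.94 in Control, rose by 0.46 (standard error 0.09, adjusted p = 0.000478), its paralog Eif1b was not called (-0.14, adjusted p = 0.475), and Eif1ad rose by 0.38 (adjusted p = 0.000971). Eif1ay was not called in IRI (-0.01) and was higher in IPC+IRI vs IRI by 0.40 (adjusted p = 0.0078), with 1 of its 2 probes called higher (0.51) and the other lower (-0.29). Eif5a, the factor with hypusine, was at 4.01, 3.51, 4.06 and 4.00 in Control, 4.16, 4.34, 4.37 and 4.23 in IRI and 3.41, 3.49, 3.30 and 3.39 in Hemin. It rose by 0.38 in IRI (adjusted p = 0.00945), or 0.25 without Control replicate 2, and fell by 0.50 (standard error 0.11, adjusted p = 0.00283) in Hemin, and Eif5a2 was called lower in Hemin (-0.34, adjusted p = 0.0166, lost without Control replicate 3 or Hemin replicate 4, at -0.31 and -0.25) and not called in IRI (0.09).

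In eIF3, the scaffold of the initiation complex, 5 of 13 genes were called higher in IRI vs Control and none lower, beside 17.1% and 33.9% of all genes. Eif3d, the subunit that can itself bind a cap, rose most, from 2.03, 2.14, 1.92 and 1.92 to 2.56, 2.69, 2.73 and 2.79, by 0.69 (standard error 0.09, adjusted p = 9.92e-06), followed by Eif3j at 0.52 (adjusted p = 0.00237) and Eif3g at 0.51 (adjusted p = 0.001). Eif3b rose by 0.50 (adjusted p = 0.00184). Eif3k, Eif3l and Eif3m were not called in IRI (-0.04, -0.07 and -0.01) and were called higher in Hemin vs Control and, against IRI, in both pretreated groups. Eif3m was at 2.95, 3.36, 2.96 and 2.82 in Control, 2.89, 3.09, 3.07 and 2.98 in IRI, 3.85, 3.70, 3.81 and 3.50 in IRI+Hemin, 3.97, 3.94, 3.82 and 4.02 in IPC+IRI and 3.94, 3.74, 4.07 and 3.94 in Hemin. It was higher by 0.90 (standard error 0.12, adjusted p = 7.02e-05) in Hemin vs Control and by 0.93 (standard error 0.12, adjusted p = 1.52e-05) in IPC+IRI vs IRI. Eif3h was called higher in Hemin vs Control by 0.53 (adjusted p = 0.0216, lost without Control replicate 3 or 4 or Hemin replicate 4, at 0.47 to 0.50) and not in IRI (0.18), and Eif3e, Eif3f and Eif3i were called in no comparison.

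Eif3a, Eif3c and the subunit-joining GTPase Eif5b, 3 large factors, were called higher in IRI+Hemin vs IRI and in IPC+IRI vs Control. Their probes changed by unequal amounts or in opposite directions, and for each gene the probe with the largest rise over IRI is shown, with a second one for Eif3c. They are 60-base oligonucleotides, printed 5′ to 3′ as the files list them with no part marked, at the mm9 intervals of the array annotation.
Eif3c, A_52_P18807, chr7:133707950-133708009, minus strand: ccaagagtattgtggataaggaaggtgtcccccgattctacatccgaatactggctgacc
Eif3c, A_51_P443322, chr7:133706143-133706202, minus strand: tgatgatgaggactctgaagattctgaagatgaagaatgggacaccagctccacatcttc
Eif5b, A_51_P479659, chr1:38089986-38090916, plus strand: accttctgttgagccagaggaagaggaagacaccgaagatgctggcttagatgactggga
Eif3a, A_51_P229280, chr19:60845888-60846942, minus strand: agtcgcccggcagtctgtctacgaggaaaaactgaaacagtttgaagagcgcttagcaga
The first Eif3c probe was at 1.73, 2.58, 1.52 and 1.53 in Control, 1.10, 1.96, 1.94 and 1.90 in IRI, 3.67, 4.43, 4.46 and 3.98 in IRI+Hemin, 3.62, 3.87, 3.81 and 3.40 in IPC+IRI and 3.21, 2.69, 2.56 and 1.74 in Hemin. Against IRI it was higher by 2.41 in IRI+Hemin and 1.95 in IPC+IRI (limma over all probes, adjusted p = 7.72e-06 and 5.48e-05). The Eif3c probe A_51_P272005, which lies nearer to the end of the gene at chr7:133690704-133690763, changed by -0.04 and -0.14 in the same comparisons (adjusted p = 0.767 and 0.229). Eif3c as a gene was higher by 0.60 (standard error 0.09, adjusted p = 5.91e-05) in IRI+Hemin vs IRI, and its change of 0.22 in IPC+IRI vs IRI was not called (adjusted p = 0.0528).

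The Eif3a probe shown was at -0.09, 0.94, -0.18 and -0.12 in Control, -0.69, 0.18, 0.25 and 0.60 in IRI, 2.33, 2.50, 2.47 and 2.72 in IRI+Hemin and 2.36, 1.89, 2.00 and 2.05 in IPC+IRI. It was higher than in IRI by 2.42 and 1.99, whereas the brighter A_52_P524895, nearer to the end of the gene, changed by -0.14 and -0.36. Eif3a was called higher in IRI+Hemin vs IRI (0.49, adjusted p = 0.000568), and with the brightest probe alone the change was -0.14. Its interaction of ischemia and Hemin was 0.57 (standard error 0.13, adjusted p = 0.0144), and with the brightest probe 0.12 (adjusted p = 0.636). The remaining Eif3c probe, A_52_P303581, changed by 0.43 and -0.03 over IRI (adjusted p = 0.00418 and 0.818). For Eif5b, 4 of 5 probes had higher values in both groups than in IRI. The probe shown rose by 2.02 in IRI+Hemin and 1.94 in IPC+IRI, A_51_P172441 by 1.05 and 0.92, and A_51_P182443 by 0.52 and 0.60. A_52_P669331 changed by 0.24 and 0.45 (adjusted p = 0.248 and 0.0326), and the fifth probe, A_52_P50009, by -0.52 and -0.70 (adjusted p = 0.0112 and 0.00148). Eif5b itself was at 0.89, 1.60, 0.94 and 0.86 in Control, 0.87, 1.30, 1.39 and 1.19 in IRI, 1.80, 2.09, 2.07 and 2.26 in IRI+Hemin and 2.02, 1.98, 1.97 and 2.05 in IPC+IRI, with 0.81 (standard error 0.15, adjusted p = 0.00041) in IPC+IRI vs IRI. On Control replicate 2 the Eif3a, Eif5b and first Eif3c probes were at 0.94, 0.88 and 2.58, each above the other Control arrays. Over all factors, a called change had a probe called in the opposite direction for 6 of 23 genes with at least 2 tested probes in IPC+IRI vs IRI, 5 of 19 in IRI+Hemin vs IRI, 7 of 28 in IPC+IRI vs Control, 3 of 21 in IRI vs Control and 4 of 20 in Hemin vs Control. In IRI+Hemin vs Hemin and IPC+IRI vs Hemin it was 0 of 22 and 0 of 14. The same count was not made over all genes of the array.

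**Figure D4:**
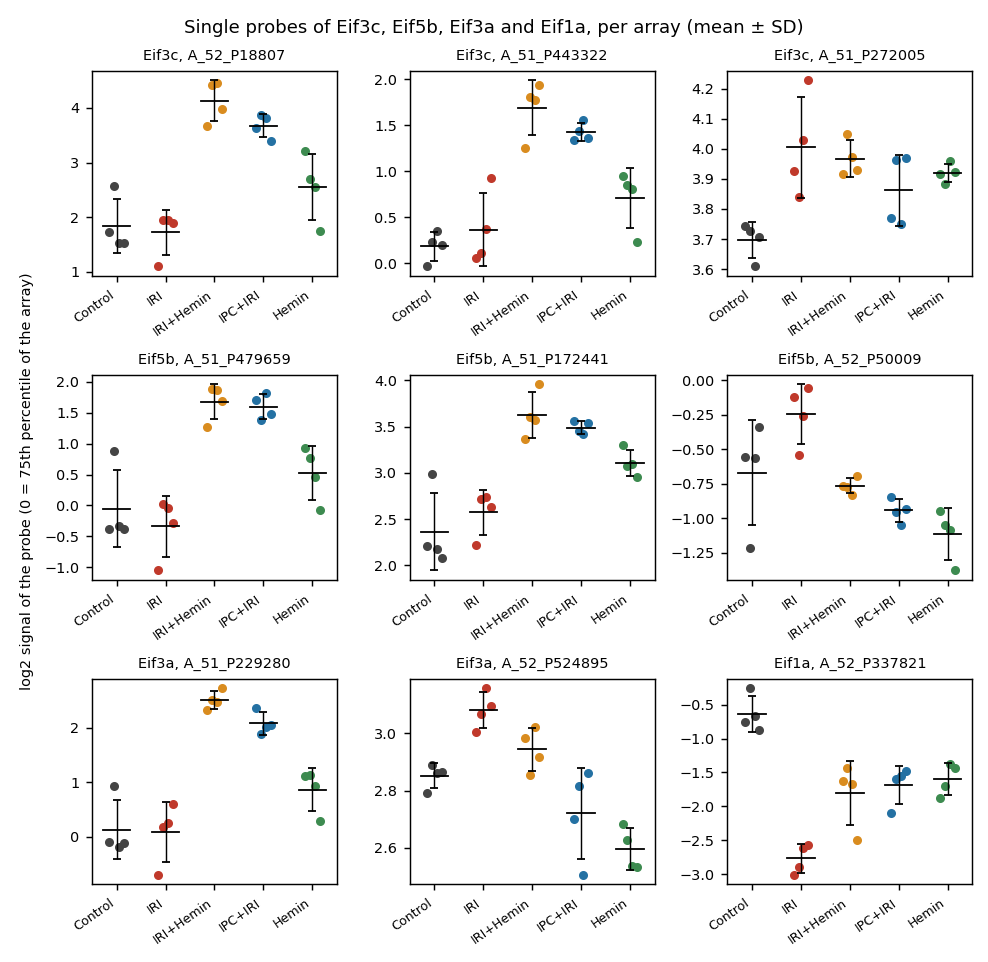
Log2 signal per array of single probes, with the mean and SD of each group. The probes of Eif3c, Eif5b and Eif3a in the left column are higher in IRI+Hemin and IPC+IRI than in IRI, and the group means of A_51_P272005, A_52_P50009 and A_52_P524895 of the same genes are not.

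None of the 7 eEF1 and eEF2 genes tested, Eef1e1 and the kinase gene Eef2k included, was called in IRI vs Control, where 17.1% of all genes were higher and 33.9% lower. Eef1a1, the gene of the aminoacyl-tRNA carrier, was at 6.36 ± 0.08 in Control and 6.32 ± 0.15 in IRI (SD, n = 4) and was called in no comparison. Its paralog Eef1a2 was listed at -6.13 in Control without an array above background. The eEF1B subunit genes Eef1b2, Eef1d and Eef1g were called higher in Hemin vs Control and, against IRI, in both pretreated groups. Eef1b2 was at 4.40, 5.04, 4.38 and 4.41 in Control, 4.47, 4.74, 4.76 and 4.66 in IRI and 5.21, 5.09, 4.95 and 5.07 in Hemin, higher in Hemin vs Control by 0.52 (standard error 0.13, adjusted p = 0.00547) and in IPC+IRI vs IRI by 0.56 (standard error 0.13, adjusted p = 0.00224). Control replicate 2, at 5.04, lay within the range of the Hemin arrays. Eef1d was higher by 0.63 in Hemin vs Control and 0.68 in IPC+IRI vs IRI (adjusted p = 0.00126 and 0.000428), but of its 2 probes tested A_52_P477489 was called lower in Hemin vs Control (-0.59) and in IRI+Hemin vs IRI (-0.69) and was at -0.27 in IPC+IRI vs IRI. Eef1g was higher by 0.37 and 0.56 (adjusted p = 0.0137 and 0.000608), where the deposited matrix gave -1.08 in Hemin vs Control and the call was lost without Control replicate 3 (0.33). In IRI+Hemin vs IRI its call was lost without IRI replicate 1 (0.24) or IRI+Hemin replicate 2 or 4 (both 0.28). Eef1e1, a subunit of the synthetase complex, was higher in IRI+Hemin vs IRI by 0.63 (standard error 0.17, adjusted p = 0.00592). Eef2, the translocase, was called in no comparison, with 3.44 ± 0.31 in Control and 3.62 ± 0.33 in IRI. Its kinase gene Eef2k, at -4.62 in Control, was higher in IPC+IRI vs IRI by 0.72 (standard error 0.23, adjusted p = 0.0154), a call lost without IRI replicate 3 or IPC+IRI replicate 3 and turned to -0.29 with normexp background correction.

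The Argonaute genes moved apart. Eif2c1 (Ago1) was at -1.59, -1.90, -1.45 and -1.50 in Control and -2.80, -2.68, -2.57 and -2.57 in IRI. It fell there by 1.04 (standard error 0.13, adjusted p = 6.31e-06), the largest fall in this comparison among all genes counted as factors. Eif2c2 (Ago2), the Argonaute that cuts its target, went from -1.42, -0.94, -1.30 and -1.40 to -0.81, -0.62, -0.58 and -0.37, up by 0.67 (standard error 0.15, adjusted p = 0.00104), and further in IRI+Hemin, to -0.16, 0.51, 0.14 and 0.17, by 0.76 (standard error 0.15, adjusted p = 0.000542). Eif2c4 (Ago4) fell by 0.60 (standard error 0.10, adjusted p = 0.000123) in IRI, and Eif2c3 (Ago3) was not called there (0.05, adjusted p = 0.79) and fell by 0.66 in IPC+IRI vs IRI (adjusted p = 0.00175). The fall of Eif2c1 was not called, and that of Eif2c4 turned to 0.014, with normexp background correction.

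Ischemia can be compared with no ischemia in further groups that share no array with IRI and Control. IRI+Hemin and Hemin were scanned on different days. IPC+IRI and Hemin also differ in the preconditioning of the first and the drug of the second, which cannot be told apart from ischemia. In IRI+Hemin vs Hemin, 12 of the 23 factors higher in IRI were called higher, of 21 there, and 2 of the 3 lower ones were called lower, of 5. These 12 were Eif1, Eif1a, Eif2ak4, Eif2c2, Eif3b, Eif3c, Eif3d, Eif3g, Eif3j, Eif4ebp1, Eif5 and Eif6, and the 2 were Eif2c1 and Eif2c4. Called in opposite directions were 2, Eif4ebp2 and Eif4a3, and of all 17289 genes tested in both, 194. Over all genes, 1970 of 2995 were called higher and 3261 of 5719 lower in both. IPC+IRI vs Hemin, added after the data were seen because these slides were scanned on 1 day, called 12 factors higher and 2 lower (13.2% and 22.8% of all genes), with no overlap in 19 (38.7%). Of these 12, 10 were called higher in IRI vs Control, and both lower ones, the Argonautes Eif2c1 and Eif2c4, were called lower there. Over all genes tested in both comparisons, 1768 were higher in both, of 2998 and 2289, and 2910 lower in both, of 5711 and 3975. With normexp background correction IPC+IRI vs Hemin had 7 factors higher and 0 lower, and without normalization between arrays 5 and 0. The calls of Eif2c1 and Eif2c4 were thus lost in both. All genes went from 2440 higher and 4233 lower to 1372 and 1415 with normexp, and to 1030 and 3064 without normalization. Eif6 differed in IPC+IRI vs Hemin by 0.96 (standard error 0.12, adjusted p = 9.5e-06), Eif1a by 1.07 (standard error 0.12, adjusted p = 3.64e-06), Eif4ebp1 by 1.04 (standard error 0.21, adjusted p = 0.000931) and Eif5 by 0.97 (standard error 0.13, adjusted p = 3.6e-05). In each of these comparisons within a day, injury also stood with a slide of its own.

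**Figure D5:**
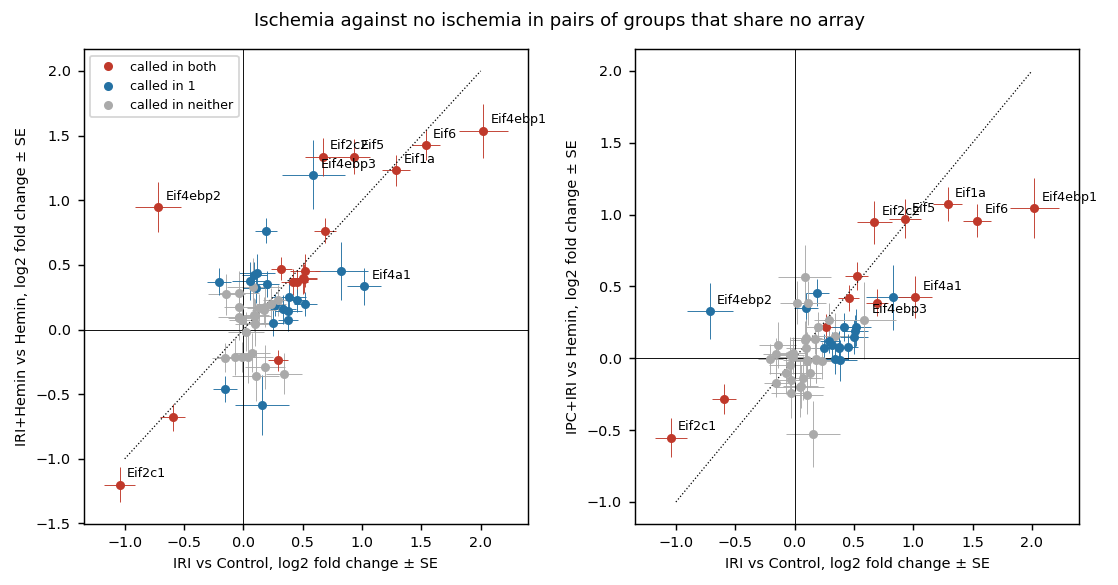
Log2 fold change of each factor in IRI vs Control (x axis) against IRI+Hemin vs Hemin (left) and IPC+IRI vs Hemin (right), with standard errors and a dotted line of equal change, coloured by the comparisons in which it was called, in either direction. Eif4ebp1, Eif6, Eif1a and Eif5 lie at the upper right in both panels, and Eif4ebp2 lies apart at the upper left.

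Hemin vs Control and IPC+IRI vs IRI also share no array, and both set a group scanned on the third day against one scanned on the first, with different treatments. Both called 11 factors higher, of 18 and 14, and 9 lower, of 10 and 14. Higher in both were Eef1b2, Eef1d, Eef1g, Eif1ay, Eif2c4, Eif3k, Eif3l, Eif3m, Eif4e, Eif4ebp2 and Eif5b. Lower in both were Eif1a, Eif2a, Eif2ak1, Eif2c3, Eif2s3x, Eif4b, Eif4enif1, Eif4g2 and Eif5a. Over all genes tested in both comparisons, 2278 were higher in both, of 3335 and 4549, and 1683 lower in both, of 2887 and 3103. Without normalization between arrays, 0 factors were called lower in either comparison. Of the factors listed, Eif2c4 turned in both with normexp background correction, to -0.097 and -0.17, and Eif2a in both with the mean of log2 values, to 0.20 and 0.083. Leaving out 1 of the 8 arrays also ended some of these Hemin vs Control calls: beside Eef1g and Eif2a, Eif1ay in 5 of the fits (0.31 to 0.33), Eif2c4 in 4 (0.25 to 0.29), Eif4e in 5 (0.25 to 0.29), Eif4ebp2 in 6 (0.44 to 0.54), Eif2c3 in 7 (-0.44 to -0.35) and Eif4b without Control replicate 3 (-0.36). No call of a listed factor in IPC+IRI vs IRI was lost in this way. Treatment, slide and scan day cannot be told apart in these factors. Control replicate 2, which lay on the slide of the other Control arrays, was the Control array nearest to the Hemin mean in 24 of the 28 factors called in Hemin vs Control, as given above.

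Promoters from RefSeq (GRCm38.p6), of 250 bases before and 50 after the annotated start, were found for 50 of the factors. The E-box CACGTG, bound by MYC and other factors, stood on either strand in 10 of the 50 (20%), and in 7.15% of all 32851 promoters of the table. Among the factors higher in IRI it stood in 2 of 19. The sites of Eif4a1 and Eif4g1, the factors higher in IRI, and of Eef2 and Eif4h, which were called in no comparison, are shown with the motif in capitals.
Eif4a1, chr11:69672595-69672624, minus strand: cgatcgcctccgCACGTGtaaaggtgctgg
Eif4g1, chr16:20672661-20672690, plus strand: ggcagtgggtgtCACGTGatggggcggagc
Eef2, chr10:81176576-81176605, plus strand: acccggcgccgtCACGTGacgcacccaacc
Eif4h, chr5:134639488-134639517, minus strand: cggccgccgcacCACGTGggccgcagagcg
The cyclic AMP element TGACGTCA was found in 1 factor, Eef2 (1.79% of all promoters), and the amino acid response letters TGATGNAAT in none (0.965%). A terminal pyrimidine start, as in mRNAs that mTOR controls, was taken as a C and at least 4 further pyrimidines from the annotated start. It was found in 4% of the factors and 2.51% of all promoters. A start annotated a few bases off is missed, so these shares do not tell how many mRNAs have one. The pyrimidine run is in capitals below.
Eif2s3x, chrX:94212637-94212666, minus strand: ctgccgagcattttcCTTTTCTCTCCgagc
Eif3f, chr7:108934400-108934429, plus strand: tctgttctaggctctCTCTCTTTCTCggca
These letters describe the annotated windows and not what binds there.

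Of 31 other genes of translation, 30 were found by symbol, all but Ppp1r15a. The paper lists that gene as up-regulated against Control in IRI and in IPC+IRI. Among the 30, 7 were higher and 6 lower in IRI vs Control, beside 17.1% and 33.9% of all genes. The termination factor Etf1 rose by 1.08 (standard error 0.10, adjusted p = 1.47e-07), and by 0.83 in IRI+Hemin vs Hemin. Ppp1r15b, which directs the phosphatase of eIF2alpha, rose by 0.66 (adjusted p = 0.000614), the recycling factor Abce1 by 0.36 and the eIF4E kinase gene Mknk2 by 0.42 (adjusted p = 0.00558 and 0.0171). Mtor, listed as Frap1, rose by 0.42 and changed by -0.83 in IRI+Hemin vs IRI and -0.55 in IPC+IRI vs IRI (adjusted p = 0.0235, 0.000261 and 0.00573). Of the 6 mitochondrial factors, 3 fell in IRI and none rose (33.9% and 17.1% of all genes), and Mtif2 and Mtif3 each fell by 0.66 on the log2 scale. In Hemin vs Control 10 of the 30 were higher and 3 lower (18.5% and 17.6% of all genes), in IPC+IRI vs IRI 9 and 7 (26.3% and 17.8%), and in IRI+Hemin vs IRI 7 and 7 (26.3% and 18.1%).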

How the data were processed

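Kidney RNA was hybridised to 1-colour Agilent mouse arrays, with 20 arrays in 5 groups of 4. The deposited scanner files hold intensity values per spot, made by the authors with Agilent Feature Extraction 9.5.3.1, which subtracts the background (gProcessedSignal). Probe positions are in mm9. The deposited series matrix holds log2 values of the same arrays, with 18.1% of its cells blank. Where a probe had 1 spot, each matrix value equalled the log2 of the processed signal within 0.001, with no scaling to the 75th percentile.

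Control spots were left out. Spots of a probe and then probes of a gene name were averaged, divided by the 75th percentile of the array and taken to log2. A single missing probe value fell among the factors, and no probe value of theirs was saturated. Genes well above background on at least 3 of 4 arrays of either group were tested with limma 3.58.1 (R 4.3.3), in a fit of 5 group means (residual degrees of freedom: 15), with Benjamini-Hochberg adjustment of p over all genes. Exact permutation tests of 4 against 4 arrays reach no less than p = 0.0286 (two-sided) and were not used for calls. The number of arrays limits the precision. The procedure was tested on simulated data.

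Members, gene lists and the rule for named genes (all kinases, eIF2, eIF2B, eIF4, 4E-BP and elongation genes, Eif3a, Eif3c, Eif5b, Eif2c1, the 6 largest called rises and falls of a comparison, and genes whose probes differed in sign) were chosen with earlier results of these data known. IPC+IRI vs Hemin, the pairs of comparisons without shared arrays and the fits per probe were added after the data were seen. Alternatives changed the background correction, scaling, probe summary, source of values, filter, fold cutoff, arrays in the fit, replicate block and arrays left out. Other cell type marker lists gave summed levels, over the 5 groups, of 194 to 364 times the 75th percentile for the thick limb and distal tubule, 24.2 to 58.2 for the collecting duct and 1.3 to 3.76 for podocytes.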

Additional observations from a re-analysis of the deposited data

Results flagged for a closer look

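Outlying arrays were looked for in 52 of the 63 factors. In 19 of their 260 groups of 4 arrays, 1 array lay apart from the other 3, by a gap that passed Dixon's critical value. Chance gives about 1 in 20. Control replicate 2 was that array for 7 genes, with Eef1b2 at 5.04, Eef1e1 at 1.45, Eif2s2 at 2.06, Eif4a2 at 3.58, Eif4enif1 at -1.95, Eif5a at 3.51 and Eif5b at 1.60. The other Control arrays were at 4.38 to 4.41, 0.56 to 0.66, 1.57 to 1.62, 3.45 to 3.46, -1.45 to -1.38, 4.00 to 4.06 and 0.86 to 0.94. On IPC+IRI arrays, Eef1a1 was at 6.18 in replicate 1, Eif1 at 5.38 in replicate 4, Eif4e3 at -1.80 in replicate 2 and Eif4ebp2 at 1.58 in replicate 4. On Hemin arrays, Eef1d was at 2.68 in replicate 3, Eif2ak1 at -1.28 and Eif2s3y at 1.50 in replicate 2, and Eif2c2 at -1.46 in replicate 4. On IRI+Hemin arrays, Eif1 was at 5.30 in replicate 2 and Eif4a1 at 3.00 in replicate 4. Eif2ak4 was at -1.63 in Control replicate 1 and Eif4e2 at 0.31 in IRI replicate 1.

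The change with ischemia differed between Hemin-treated and untreated mice, by limma's interaction term, for 5 factors: it was higher in treated mice for Eif3a (0.57), Eif4a2 (0.57) and Eif4ebp2 (1.66) and lower for Eif4a1 (-0.68) and Eif4a3 (-0.53). No call held under all alternatives: without normalization between arrays all 5 were lost, with normexp background correction all but that of Eif4ebp2, and with the brightest probe the Eif3a value was 0.12. Of all genes tested, 5.84% had a higher and 1.96% a lower interaction. Slide and group cannot be told apart in this term either.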

How the results depend on the processing

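Of the 195 called changes over all factors, 62 kept their call and direction under every alternative run other than the fold cutoffs. Among them were Eif1a, Eif2c2, Eif3b, Eif4e, Eif4ebp1, Eif5 and Eif6 in IRI vs Control. Of the 195, 32 changed direction under at least 1 alternative. None of the 5 interaction calls kept its call throughout. Slide or scan day as a block was not run, since each group had a slide of its own. The cause of the changes below was not tested.

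Counts of factors are given as higher and lower. The counts of all genes, given above for several of these settings, moved as well. With normexp background correction they were 11 higher and 1 lower in IRI vs Control, 4 lower in IPC+IRI vs Control, 4 lower in Hemin vs Control, 3 lower in IRI+Hemin vs Hemin, 7 higher and 0 lower in IPC+IRI vs Hemin and 1 higher and 0 lower for the interaction. With no normalization between arrays they were 13 higher and 1 lower in IRI vs Control, 0 lower in IPC+IRI vs IRI, in IPC+IRI vs Control and in IRI+Hemin vs IRI, 38 higher and 0 lower in Hemin vs Control, 9 higher and 2 lower in IRI+Hemin vs Hemin, 5 higher and 0 lower in IPC+IRI vs Hemin, and 0 and 0 for the interaction. Quantile normalization gave 5 lower in IRI vs Control, 10 higher in Hemin vs Control, 1 lower in IPC+IRI vs Hemin and 1 lower for the interaction. The 75th percentile of the probes well above background gave 5 lower in IRI vs Control, 10 higher in Hemin vs Control and 1 lower for the interaction. The mean of log2 values gave 9 lower in IPC+IRI vs IRI, 0 lower in IPC+IRI vs Hemin and 1 lower for the interaction, and the brightest probe 4 lower for the interaction. The deposited matrix, in which 57 to 60 of the factors were tested, gave 14 higher in IRI vs Control, 9 higher in IPC+IRI vs IRI, 11 higher in Hemin vs Control, 1 lower in IPC+IRI vs Hemin, and 1 higher and 1 lower for the interaction. No filter on dim genes gave 3 lower in IRI+Hemin vs Hemin, 1 lower in IPC+IRI vs Hemin and 1 lower for the interaction. A 3-fold cutoff left 1 higher in IRI vs Control, 1 higher and 0 lower in IPC+IRI vs IRI, 1 higher in IRI+Hemin vs IRI, 0 and 0 in Hemin vs Control and 0 higher in IRI+Hemin vs Hemin. A 4-fold cutoff left 0 higher in IPC+IRI vs Control, and a 2-fold cutoff 1 lower in IRI vs Control, 0 in IPC+IRI vs Control, 1 in IRI+Hemin vs IRI and 1 in IRI+Hemin vs Hemin.

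Leaving out each array in turn gave 21 to 26 higher and 3 lower in IRI vs Control, 12 to 15 higher and 12 to 15 lower in IPC+IRI vs IRI, 27 to 32 and 6 to 9 in IPC+IRI vs Control, 17 to 23 and 9 to 13 in IRI+Hemin vs IRI, 13 to 21 and 6 to 11 in Hemin vs Control, 18 to 21 and 3 to 6 in IRI+Hemin vs Hemin, 10 to 13 and 1 to 3 in IPC+IRI vs Hemin, and 2 to 4 and 1 to 3 for the interaction.

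The replicate numbers did not pair the arrays: deviations from the group means correlated between -0.33 and 0.21 for the same number and between -0.31 and 0.41 for other numbers. With the replicate block, 185 of the 195 calls held and 10 were lost, with 22 higher and 3 lower in IRI vs Control, 1 lower in IPC+IRI vs Hemin and 1 lower for the interaction.

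These single values changed direction. With normexp, Eif2c4 was at 0.014 in IRI vs Control, -0.17 in IPC+IRI vs IRI and -0.097 in Hemin vs Control, Eef2k at -0.29 in IPC+IRI vs IRI and -0.075 in IPC+IRI vs Control, Eif2c1 at -0.10 in IPC+IRI vs IRI and Eif2ak4 at -0.022 in IPC+IRI vs Control. With no normalization, Hemin vs Control gave Eif1a 0.039, Eif2a 0.23, Eif2ak1 0.076, Eif2c3 0.16, Eif2s3x 0.15, Eif4b 0.096, Eif4enif1 0.065, Eif5a 0.068 and Eif5a2 0.23, IPC+IRI vs Control gave Eif2a 0.085, Eif4g2 0.019 and Eif5a 0.017, and IPC+IRI vs IRI gave Eif4e2 0.030. With the mean of log2 values, Eif2ak4 was at -0.30 in IRI vs Control and -0.17 in IPC+IRI vs Control, Eif4g1 at -0.051 in IRI vs Control, Eif2a at 0.083 in IPC+IRI vs IRI, 0.35 in IPC+IRI vs Control and 0.20 in Hemin vs Control, Eif4ebp1 at 0.011 in IPC+IRI vs IRI, and Eif2ak1 at 0.017 in IPC+IRI vs Control and 0.063 in IRI+Hemin vs IRI. With the brightest probe, Eif3a was at -0.13 in IPC+IRI vs Control and -0.14 in IRI+Hemin vs IRI. With the deposited matrix, Eif4g1 was at -1.10 in IRI vs Control, Eif2s1 at -0.0022 in IPC+IRI vs Control, Eef1g at -1.16 in IRI+Hemin vs IRI and -1.08 in Hemin vs Control, Eif3d at -0.76 in IRI+Hemin vs IRI and Eif4enif1 at 0.25 in Hemin vs Control. Eif2b3 and Eef1a2, at or near background, have no firm values.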
